A study of Mus musculus with 20 samples.

Results

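The genes of glucose uptake, glycolysis and glycogen metabolism were examined in RNA-seq counts from mouse temporomandibular joint (TMJ) condylar heads. The set holds 33 genes, taken by symbol from a fixed list of glucose transporters, glycolytic enzymes and glycogen enzymes. All 33 were found among the 54532 genes of the count table by Ensembl identifier, and all 33 passed the filter on low counts. Both groups were Acan-CreERT2;*Loxl2* fl/fl mice, in which Cre recombinase is driven by the aggrecan promoter and tamoxifen is to delete *Loxl2*, the gene of a collagen-crosslinking enzyme. Mice 6 months of age received vehicle (Control, 8 libraries) or tamoxifen at 75 mg/kg (labelled knockout, 12 libraries). Injections were daily at first and then monthly, and the mice were sacrificed after 4 months. Control mice carried the same alleles without the drug, and effects of tamoxifen and of the deletion cannot be told apart. Condylar heads were collected with part of the subchondral bone.

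Glycolysis converts glucose to pyruvate and yields ATP without oxygen, and glycogen is the polymer in which cells store glucose. Several steps have a separate gene for skeletal muscle, which turns over glucose and glycogen at high rates during contraction, and a second gene used by most other cells. Chondrocytes live in tissue without blood vessels and rely largely on glycolysis. The muscle isoforms compared here were *Slc2a4* (the insulin-responsive glucose transporter GLUT4), *Pfkm* (phosphofructokinase), *Pgam2* (phosphoglycerate mutase), *Eno3* (beta-enolase) and *Pygm* (glycogen phosphorylase). Their widely expressed counterparts were *Slc2a1* (GLUT1), *Pfkl* and *Pfkp*, *Pgam1*, *Eno1*, and *Pygl* and *Pygb*.

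Library totals ran from 11153820 to 27045668 counts. *Loxl2* itself did not fall, with means of 64.5 CPM (counts scaled to a common library size) in Control and 101 CPM in the libraries labelled knockout (log2 fold change, log2FC, 0.64, edgeR adjusted p = 0.101), and animals are called by their labels throughout. Of 11 marker lists (cell types and the Y chromosome), the skeletal muscle list was lower in the libraries labelled knockout. The osteoclast, macrophage, and osteoblast and osteocyte lists were higher there. A pair of Control libraries stood apart. Control replicate 8 had the highest skeletal muscle score (10.41, the mean log2 CPM of the list) and the lowest chondrocyte score (1.83, against 3.61 to 6.19 in the other Control libraries), with *Acan* at 2.22 CPM. Control replicate 1 had the highest neuron and glia score (5.23), with the neuronal gene *Snap25* at 117 CPM, where the highest library labelled knockout had 25.2 CPM. *Gfap*, a gene of glia, ran from 0.548 to 9.95 CPM in Control and from 0.228 to 5.45 CPM in the libraries labelled knockout.

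The level of each gene was first ordered per kilobase of exon, as CPM per kilobase (RPKM), because the genes differ in length. Muscle-type enzymes dominated. *Aldoa*, the aldolase of muscle and of most other tissues, was first at a mean of 2914 RPKM over the 20 libraries. *Eno3* (1575 RPKM), *Pgam2* (1082 RPKM), *Pygm* (678 RPKM) and *Pfkm* (610 RPKM) followed, and *Slc2a4* ranked 9 of 33 at 153 RPKM. Their counterparts all lay below these genes in the order, with *Eno1* (rank 16) at 29.0 and *Pgam1* (rank 18) at 19.9 RPKM. *Pygb* stood at 5.18, *Slc2a1* at 4.49, *Pfkl* at 3.60, *Pfkp* at 2.34 and *Pygl* at 1.69 RPKM. At each of these steps the muscle isoform held from 93.6% to 99.9% of the summed RPKM of a library. The share of *Pfkm* ran from 98.7% to 99.7% in Control and from 98.4% to 99.2% in the libraries labelled knockout. The share of *Slc2a4* had the widest range, from 96.1% to 99.1% and from 93.6% to 98.1%. *Pygm* (903 ± 478 RPKM in Control, SD, n = 8) and *Pfkm* (737 ± 203 RPKM) overlapped, and their order turned between libraries. Control replicate 1 had 446 RPKM of *Pygm* against 474 of *Pfkm*, and Control replicate 8 had 1949 against 1158. *Aldoa* lay above *Eno3* in every library.

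Differential expression was then compared between the groups to ask which steps changed. With edgeR and adjustment over all 15984 genes tested, 13 of 33 genes passed an adjusted p of 0.05, against 23% of all genes tested. Of these, 4 were higher in the libraries labelled knockout (12% of all genes tested were) and 9 were lower (11% of all genes tested were). The median log2FC was -0.39 over the 33 genes and -0.02 over all genes tested, and 24 of the 33 values were negative. The higher genes were *Hk1*, *Hk3*, *Pgam1* and *Pygl*. The lower genes were *Slc2a4*, *Hk2*, *Pfkm*, *Pfkfb1*, *Aldoc*, *Bpgm*, *Pygm*, *Phka1* and *Phkg1*. The groups overlapped for each of the 33 genes, and the share of all genes tested with groups apart is not given here. Without Control replicate 8, 7 of the 33 (21.2%) passed, against 15.7% of all genes tested in that fit. Without Control replicates 1 and 8, 6 (18.2%) passed, against 2451 of all 16388 genes tested in that fit. These were *Hk1*, *Pgam1* and *Pygl*, higher, and *Pfkfb1*, *Bpgm* and *Phkg1*, lower. The same 6 kept their calls in each of the 20 fits that left out 1 library.

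**Figure D1:**
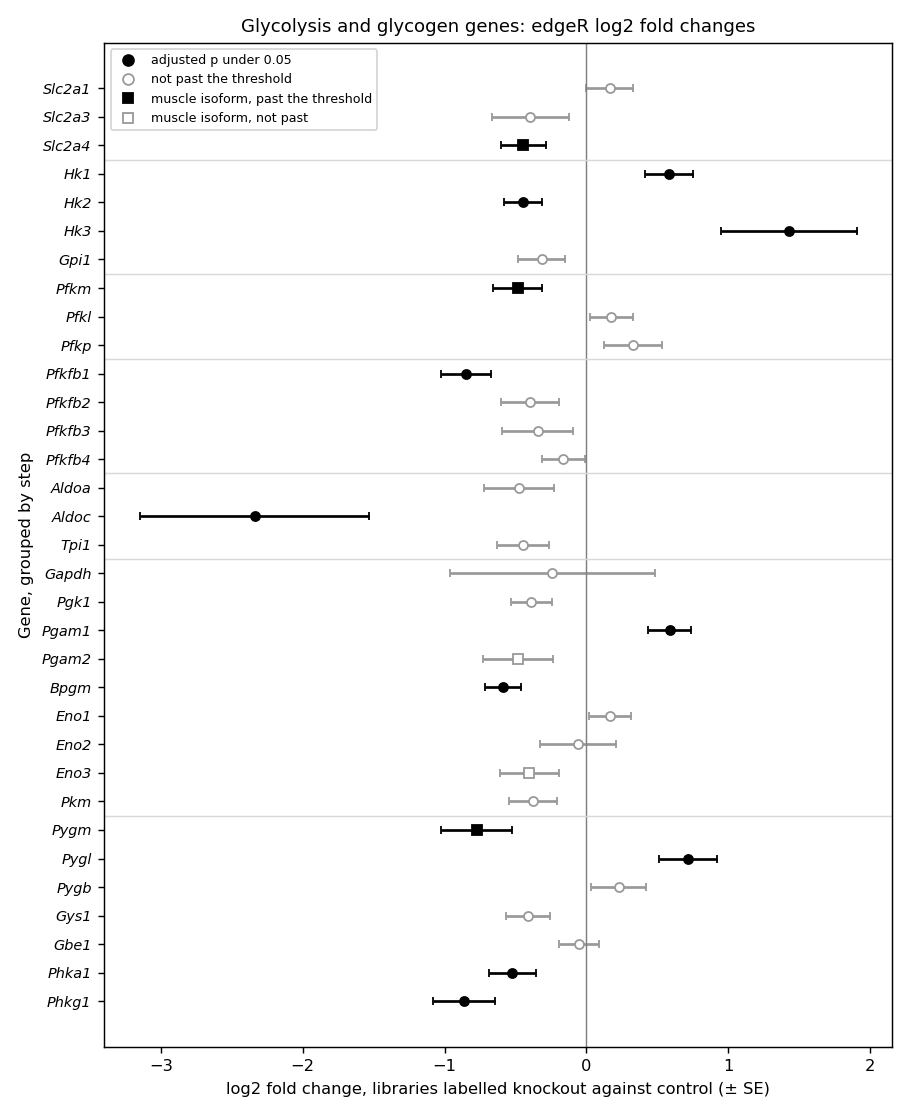
edgeR log2FC values of the 33 genes (x axis, libraries labelled knockout against Control, bars ± SE), grouped by step on the y axis. Filled symbols have an adjusted p under 0.05 and squares are muscle isoforms; all 5 muscle isoforms have negative values and 3 of them pass.

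Among the glucose transporters, the muscle form was lower and the widely expressed forms did not pass. *Slc2a4* (chromosome 11, 69942539 to 69948188, minus strand, GRCm38) ran from 500 CPM through a median of 567 to 1006 CPM in Control, and from 296 through 456 to 694 CPM in the libraries labelled knockout. Of the 12, 10 lay below the lowest Control library. Its log2FC was -0.45 (edgeR adjusted p = 0.0452, SE 0.16), a narrow pass that was kept only without Control replicates 1, 2 or 5 or replicates 5 or 12 of the labelled knockout, and lost in the other 15 of 20 fits. *Slc2a1* ran from 9.34 through 14.3 to 20.2 CPM and from 10.8 through 14.1 to 22.9 CPM (log2FC 0.16, SE 0.16, edgeR adjusted p = 0.493). *Slc2a3*, the high-affinity transporter GLUT3, had a log2FC of -0.40 (edgeR adjusted p = 0.304, SE 0.27) and rested on 39.5 CPM in Control replicate 8. Without that library its value was 0.06.

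Hexokinases trap glucose in the cell as glucose 6-phosphate, and their isoforms moved in opposite directions. *Hk1*, the form of most tissues (chromosome 10, 62268855 to 62379908, minus strand), ran from 13.9 through 37.2 to 43.1 CPM in Control and from 32.3 through 49.5 to 66.3 CPM in the libraries labelled knockout. Of these 12, 11 lay above the highest Control library. It rose by a log2FC of 0.58 (edgeR adjusted p = 0.0184, SE 0.17). *Hk2*, the form of skeletal muscle, heart and fat (chromosome 6, 82725025 to 82774454, minus strand), ran from 376 through 408 to 638 CPM and from 231 through 305 to 496 CPM. It fell, with 9 of 12 below every Control library (log2FC -0.45, SE 0.13, edgeR adjusted p = 0.0213), and did not pass without Control replicate 8 (-0.34, edgeR adjusted p = 0.0692). *Hk3*, found mainly in myeloid blood cells (chromosome 13, 55005985 to 55021385, minus strand), was close to the limit of detection in Control, at 0 to 2.04 CPM, and ran from 1.29 through 2.05 to 7.82 CPM in the libraries labelled knockout. Its log2FC was 1.42 (edgeR adjusted p = 0.0363, SE 0.48), with 12 of 12 above the Control median. The call was lost without Control replicates 1, 3, 7 or 8 or replicates 2, 3, 6 or 7 of the labelled knockout. *Gpi1*, which converts glucose 6-phosphate to fructose 6-phosphate, did not pass (-0.32, SE 0.16, edgeR adjusted p = 0.167), and was -0.19 without Control replicate 8.

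Osteoclast and macrophage genes were higher in the libraries labelled knockout, as were *Hk1*, *Hk3*, *Pgam1* and *Pygl*. Of 10 osteoclast genes, 10 were higher, against 12% of all genes tested. The list score ran from 2.40 to 5.27 in Control and from 4.05 to 7.61 in the libraries labelled knockout. Of 8 macrophage genes, 7 were higher, with scores of 2.44 to 4.51 and 3.73 to 5.71. Of 9 neutrophil genes tested, 1 was higher and all 9 had positive values (median log2FC 2.14), with scores of -1.14 to 3.19 and -0.14 to 5.87. With the osteoclast list as covariate, the log2FC values were 0.07 for *Hk1*, 0.82 for *Hk3*, 0.31 for *Pgam1* and 0.61 for *Pygl*, and none of the 33 passed with edgeR (3 had an unadjusted p under 0.05). That fit called 0 of 15984 genes (1299 at an unadjusted p under 0.05), and 59.0% of the variance of the list score lay between the groups. In bulk tissue, fewer cells of a type and less RNA per cell cannot be told apart. The cell source of *Hk1*, *Hk3*, *Pgam1* and *Pygl* was not tested.

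Phosphofructokinase makes fructose 1,6-bisphosphate, the committed step of glycolysis. *Pfkm* (chromosome 15, 98092589 to 98132451, plus strand) ran from 1583 through 2339 to 3869 CPM in Control and from 1166 through 1677 to 2555 CPM in the libraries labelled knockout, with 10 of 12 under the median of Control. Its log2FC was -0.48 (edgeR adjusted p = 0.0467, SE 0.17). The call was kept without Control replicates 1 or 5 or replicates 3, 5, 11 or 12 of the labelled knockout and lost in the other 14 fits. *Pfkl*, the liver form, and *Pfkp*, the platelet form, did not pass, at 0.18 (edgeR adjusted p = 0.41, SE 0.15) and 0.33 (edgeR adjusted p = 0.25, SE 0.20).

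The bifunctional PFKFB enzymes make and remove fructose 2,6-bisphosphate, the activator of phosphofructokinase. *Pfkfb1*, known from liver and muscle (chromosome X, 150588229 to 150643878, plus strand), ran from 38.5 through 51.7 to 77.9 CPM in Control and from 18.5 through 28.1 to 44.6 CPM in the libraries labelled knockout. All 12 lay below the Control median and 9 below the lowest Control library. It fell by 0.85 in log2 units (edgeR adjusted p = 0.00289, SE 0.18), the lowest adjusted p of the 33, and passed in every fit that left out 1 library. *Pfkfb2* (-0.40), *Pfkfb3* (-0.34) and *Pfkfb4* (-0.16) did not pass (edgeR adjusted p = 0.165, 0.333 and 0.462). *Pfkfb3*, the hypoxia-responsive form, reached 189 CPM in 1 Control library, and without Control replicate 8 its value was -0.07.

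Aldolase splits fructose 1,6-bisphosphate into a pair of trioses, which triosephosphate isomerase interconverts. *Aldoa* (ENSMUSG00000030695, chromosome 7, 126795234 to 126800751, minus strand) ran from 5252 through 9065 to 21755 CPM in Control and from 4117 through 6750 to 10908 CPM in the libraries labelled knockout. The difference did not pass (log2FC -0.48, SE 0.25, edgeR adjusted p = 0.163), and was -0.21 without Control replicate 8. A second gene model of the same name just upstream (ENSMUSG00000114515, chromosome 7, 126800790 to 126809108) was not counted among the 33. It ran from 4.36 to 63.6 CPM and from 2.13 to 11.2 CPM (log2FC -1.40, SE 0.44, edgeR adjusted p = 0.025). The call rested on Control replicate 8, which had 63.6 CPM against 20.5 CPM in the next Control library, and without it the value was -0.66 (edgeR adjusted p = 0.196). Reads of adjoining models may be divided between them. *Aldoc*, the aldolase of brain (chromosome 11, 78322968 to 78327781, plus strand), ran from 0.274 through 3.82 to 203 CPM in Control and from 1.32 through 5.30 to 21.7 CPM in the libraries labelled knockout. Its median was higher in the libraries labelled knockout and its edgeR log2FC was -2.34 (SE 0.81, adjusted p = 0.0407). The value rested on Control replicate 1, the library with the most *Snap25*, and without it was -0.42 (edgeR adjusted p = 0.669). The DESeq2 Wald test gave -0.36 (adjusted p = 0.734), and the neuron and glia list as covariate gave 0.66 (edgeR adjusted p = 0.301). *Aldoc* was called without Control replicates 2, 3, 4, 5, 7 or 8 or replicates 6 or 12 of the labelled knockout, and in no other of the 20 fits. *Tpi1* had a log2FC of -0.45 (edgeR adjusted p = 0.0834, SE 0.18), with 11 of 12 below the Control median, and passed without Control replicate 1 or replicate 5 of the labelled knockout. Without Control replicate 8 it was -0.27 (edgeR adjusted p = 0.274).

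*Gapdh*, which oxidizes glyceraldehyde 3-phosphate and often serves as a reference gene, split the libraries of both groups into high and low ones. Control replicates 1 to 8 had 342, 539, 21.4, 406, 337, 23.9, 551 and 32.7 CPM. Replicates 1 to 12 of the labelled knockout had 25.8, 236, 39.0, 24.6, 667, 407, 312, 58.2, 67.5, 288, 30.1 and 705 CPM. The low libraries, at or under 67.5 CPM, were 3 of 8 in Control and 6 of 12 in the labelled knockout, and no library lay between 67.5 and 236 CPM. The highest value was 32.9 times the lowest. The log2FC was -0.24 (edgeR adjusted p = 0.842, SE 0.72), with the widest SE of the 33 after *Aldoc*. Over the same 20 libraries *Tpi1*, the enzyme before it, ran from 629 to 2166 CPM and *Pgk1*, the enzyme after it, from 280 to 720 CPM. *Gapdh* has near-identical processed pseudogenes, and how reads with several mapping positions were counted was not given in the sources used here. The part of this in the split was not tested.

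**Figure D2:**
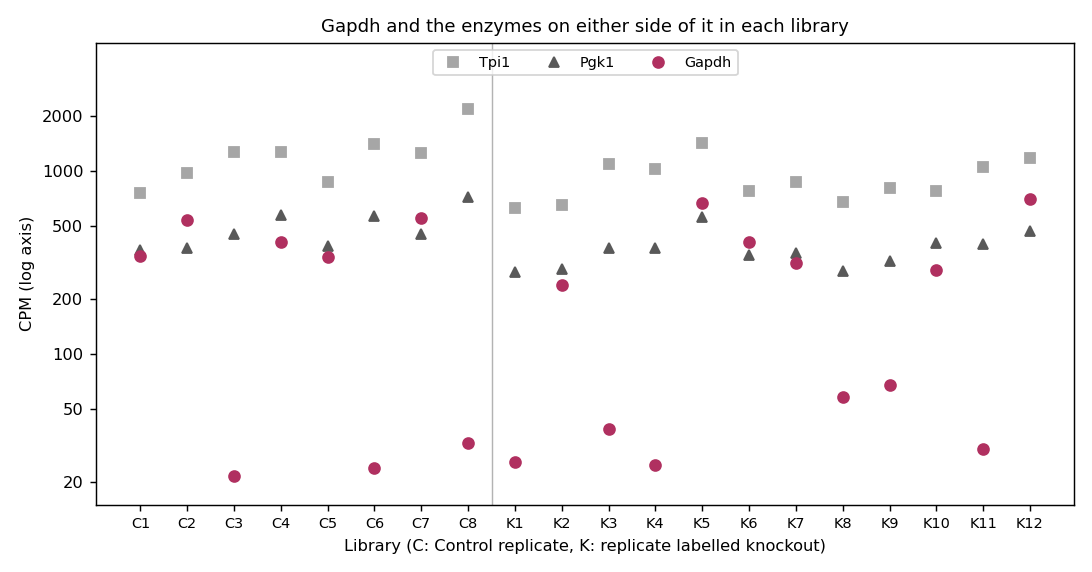
CPM of *Gapdh*, *Tpi1* and *Pgk1* on a log axis in each of the 20 libraries (x axis, C for Control and K for labelled knockout). *Gapdh* lies at or under 67.5 CPM in 9 libraries and at or above 236 CPM in the other 11, and *Tpi1* and *Pgk1* show no such gap.

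The lower part of glycolysis turns triose phosphates into pyruvate. *Pgk1* makes the first ATP of this stretch and had a log2FC of -0.39 (edgeR adjusted p = 0.056, SE 0.14). It passed without Control replicates 1, 2 or 5 or replicates 5 or 12 of the labelled knockout, and with the DESeq2 Wald test (-0.40, adjusted p = 0.0429). *Pgam1*, the widely expressed phosphoglycerate mutase (chromosome 19, 41911923 to 41918660, plus strand), ran from 15.9 through 33.1 to 40.2 CPM in Control and from 33.9 through 48.2 to 56.4 CPM in the libraries labelled knockout. All 12 lay above the Control median, and it rose by 0.59 (edgeR adjusted p = 0.0102, SE 0.15). *Pgam2* (chromosome 11, 5801640 to 5803733, minus strand) ran from 574 through 1006 to 2198 CPM and from 438 through 669 to 1296 CPM. It did not pass (-0.48, SE 0.25, edgeR adjusted p = 0.159), and was -0.25 without Control replicate 8. *Bpgm*, which makes 2,3-bisphosphoglycerate, the red cell regulator of oxygen release (chromosome 6, 34476207 to 34505613, plus strand), ran from 36.2 through 53.6 to 85.4 CPM and from 32.1 through 35.7 to 50.9 CPM. All 12 libraries labelled knockout lay below the Control median, and *Bpgm* fell by 0.59 in log2 units (edgeR adjusted p = 0.00389, SE 0.13). The 7 erythroid genes had negative values and none passed with edgeR, with scores of 3.49 to 6.76 in Control and 1.89 to 5.31 in the libraries labelled knockout (exact permutation p = 0.0628, 0.115 adjusted over 11 lists); their part in the *Bpgm* result was not tested.

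Enolase and pyruvate kinase complete the pathway. *Eno3* (chromosome 11, 70657202 to 70662513, plus strand) ran from 1982 through 2982 to 5403 CPM in Control and from 1435 through 2121 to 3895 CPM in the libraries labelled knockout, and did not pass (-0.40, SE 0.21, edgeR adjusted p = 0.16), with -0.24 without Control replicate 8. *Eno1*, the form of most tissues, ran from 72.3 through 141 to 198 CPM and from 131 through 157 to 219 CPM (0.17, SE 0.15, edgeR adjusted p = 0.43). *Eno2*, the neuronal enolase, reached 44.1 CPM in Control replicate 1 and 18.04 CPM in the next Control library, with a log2FC of -0.06 (edgeR adjusted p = 0.894, SE 0.27) that was 0.32 without that library. *Pkm*, whose splice forms are counted together, had a log2FC of -0.38 (edgeR adjusted p = 0.114, SE 0.17), which was -0.20 without Control replicate 8 and passed with the neuron and glia list as covariate (-0.46, edgeR adjusted p = 0.0458).

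Glycogen phosphorylase releases glucose 1-phosphate from glycogen and is switched on by phosphorylase kinase. The muscle forms of both were lower, and the liver phosphorylase was higher. *Pygm* (chromosome 19, 6384399 to 6398459, plus strand) ran from 1436 through 2313 to 6273 CPM in Control and from 932 through 1686 to 2962 CPM in the libraries labelled knockout. It fell by 0.77 in log2 units (edgeR adjusted p = 0.0285, SE 0.25), with 10 of 12 below the Control median, and did not pass without Control replicate 4 or Control replicate 8, at -0.50 (edgeR adjusted p = 0.116) without the latter. *Pygl* (chromosome 12, 70190811 to 70231488, minus strand) ran from 2.22 through 9.25 to 11.5 CPM and from 9.60 through 13.9 to 21.8 CPM, with 9 of 12 above every Control library. It rose by 0.72 (edgeR adjusted p = 0.0165, SE 0.20). *Pygb*, the brain form, did not pass (0.23, SE 0.19, edgeR adjusted p = 0.41).

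*Phkg1*, the catalytic subunit of phosphorylase kinase in muscle (chromosome 5, 129863421 to 129898549, minus strand), ran from 183 through 259 to 600.3 CPM in Control and from 98.2 through 165 to 327 CPM in the libraries labelled knockout. Of the 12, 10 lay below the lowest Control library, and it fell by 0.86 (edgeR adjusted p = 0.00891, SE 0.22). *Phka1*, a muscle regulatory subunit (chromosome X, 102513975 to 102644246, minus strand), ran from 170 through 206 to 458 CPM and from 129 through 154 to 240 CPM. It fell by 0.52 (edgeR adjusted p = 0.0267, SE 0.17) and did not pass without Control replicate 8 (-0.30, edgeR adjusted p = 0.0998). *Gys1*, the glycogen synthase of muscle, had a value of -0.41 (edgeR adjusted p = 0.0601, SE 0.16), and passed without Control replicate 1 or replicates 5 or 12 of the labelled knockout and with the DESeq2 Wald test (adjusted p = 0.0452). *Gbe1*, the branching enzyme, had a log2FC of -0.05 (edgeR adjusted p = 0.827, SE 0.14).

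**Figure D3:**
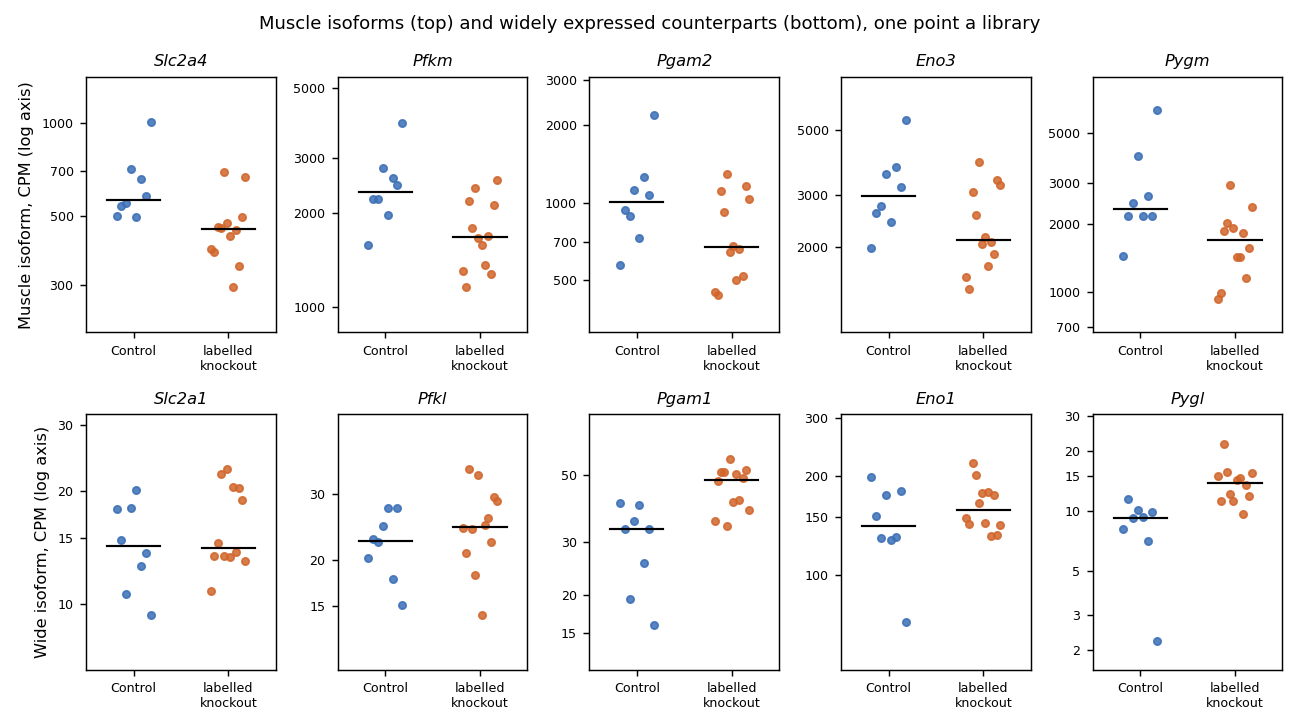
CPM of the muscle isoforms (top row) and of 1 widely expressed counterpart each (bottom row) on log axes, with 1 point a library and a line at the median, for 8 Control and 12 labelled knockout libraries. The medians of the 5 muscle isoforms are lower in the labelled knockout, and *Pgam1* and *Pygl* are higher there, with 9 of 12 libraries above every Control library.

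The isoforms were next set against each other within a library, where the scaling of libraries plays no part. For each step, the log2 ratio of muscle counts to the summed counts of the counterparts (0.5 counts added to each gene) was compared with a permutation test (exact, two-sided, 125970 assignments), with adjustment over the 5 ratios. All 5 ratios were lower in the libraries labelled knockout. The *Pygm* ratio to *Pygl* + *Pygb* was 6.51 ± 1.27 (SD) in the 8 Control libraries and 5.33 ± 0.63 (SD) in the 12 labelled knockout, a difference of -1.18 (exact permutation p = 0.00596, adjusted 0.00994). The *Pgam2* ratio to *Pgam1* was 5.14 ± 0.999 and 4.02 ± 0.63, a difference of -1.11 (exact permutation p = 0.00499, adjusted 0.00994). The *Pfkm* ratio to *Pfkl* + *Pfkp* was 5.63 ± 0.72 and 4.87 ± 0.35, a difference of -0.76 (exact permutation p = 0.00254, adjusted 0.00994), and 11 of 12 were under the median of Control.

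The other 2 ratios passed by less. The *Slc2a4* ratio to *Slc2a1* was 5.43 ± 0.65 and 4.82 ± 0.58, a difference of -0.62 (exact permutation p = 0.0373, adjusted 0.0447), and the *Eno3* ratio to *Eno1* was 4.46 ± 0.83 and 3.84 ± 0.50, a difference of -0.61 (exact permutation p = 0.0447, adjusted 0.0447). The first 3 ratios passed in each of the 20 comparisons that left out 1 library. The *Slc2a4* ratio passed in 7 of them (without Control replicates 1, 2 or 5 or replicates 1, 5, 11 or 12 of the labelled knockout) and the *Eno3* ratio in 5 (without Control replicates 1 or 2 or replicates 5, 11 or 12 of the labelled knockout). Without Control replicate 8, the library with the highest value of each of the 5 ratios, they were -0.43 and -0.36 (exact permutation adjusted p = 0.129 and 0.136). Without Control replicates 1 and 8, 4 of the 5 ratios passed, with *Slc2a4* at -0.50 (exact permutation adjusted p = 0.0753).

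**Figure D4:**
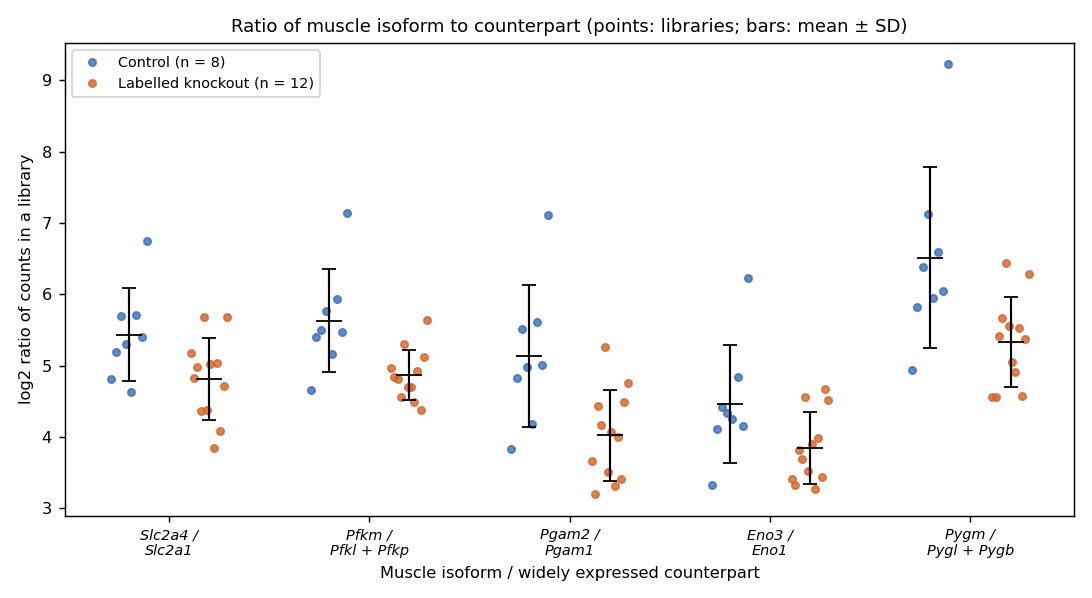
log2 ratio of the counts of each muscle isoform to those of its counterparts (y axis), with 1 point a library and bars at the mean ± SD of 8 Control and 12 labelled knockout libraries. Each mean is lower in the labelled knockout, by 0.61 to 1.18, and the highest Control point of each ratio is replicate 8.

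Skeletal muscle genes were then set beside these isoforms. The score of 27 skeletal muscle genes, none of them among the 33, was 9.68 ± 0.47 (SD) over the 8 Control libraries, from 8.87 to 10.41, and 9.18 ± 0.36 (SD) over the 12 labelled knockout, from 8.45 to 9.68 (exact permutation p = 0.0139, 0.0383 adjusted over 11 lists). Of the 27, 10 were lower (11% of all genes tested were) and none higher, with a median log2FC of -0.56 and 24 negative values. *Ckm*, muscle creatine kinase, ran from 3661 to 14980 CPM in Control and from 2446 to 6946 CPM in the libraries labelled knockout (log2FC -0.74, edgeR adjusted p = 0.0355). *Mylpf*, a fast muscle myosin light chain, fell by 0.58 in log2 units (edgeR adjusted p = 0.0473), and *Acta1*, skeletal muscle actin, had -0.45 (edgeR adjusted p = 0.183).

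Within each group, the level of 10 isoforms was correlated with the muscle score, giving 20 relations. All 5 muscle isoforms rose with the score. In Control, Pearson's r ran from 0.84 for *Slc2a4* to 0.93 for *Pygm* (n = 8, exact permutation p from 0.00193 to 0.0099, adjusted p from 0.0129 to 0.0198), and Spearman's rho from 0.74 to 0.86, where *Pgam2* alone passed (exact permutation adjusted p = 0.0357, the others from 0.0622 to 0.0917). In the libraries labelled knockout, r ran from 0.74 for *Pgam2* to 0.87 for *Pygm* (n = 12, permutation adjusted p from 0.0064 to 0.0157) and rho from 0.72 to 0.86 (permutation adjusted p from 0.0076 to 0.0357). When the 2 libraries most distant from the median score were dropped, r ran from 0.45 to 0.81 in Control and from 0.58 to 0.79 in the libraries labelled knockout. The counterparts *Pfkl*, *Eno1*, *Pgam1*, *Pygl* and *Slc2a1* did not pass in either group, with r from -0.64 to -0.31 in Control and from -0.16 to 0.21 in the libraries labelled knockout (permutation adjusted p from 0.174 to 0.947). Without the 2 farthest libraries the Control values ran from -0.09 to 0.57, so the negative values rested on those libraries. The genes and the score share the scaling of their library.

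With the muscle score as covariate, none of the 33 genes passed with edgeR (8 had an unadjusted p under 0.05), and 465 of 15984 genes were called overall. In that fit *Pygm* stood at -0.09, *Pfkm* at -0.08, *Slc2a4* at -0.11, *Eno3* at 0.07 and *Pgam2* at 0.11. With the osteoclast score as covariate they stood at 0.14, 0.16, 0.11, 0.45 and 0.54, in the same order, and none passed. In the fit with the muscle score, the values farther from 0 included *Pfkfb1* (-0.55, edgeR adjusted p = 0.0727), *Pygl* (0.57, edgeR adjusted p = 0.155) and *Pgam1* (0.46, edgeR adjusted p = 0.119). The score itself differed between the groups, which accounted for 29.0% of its variance.

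**Figure D5:**
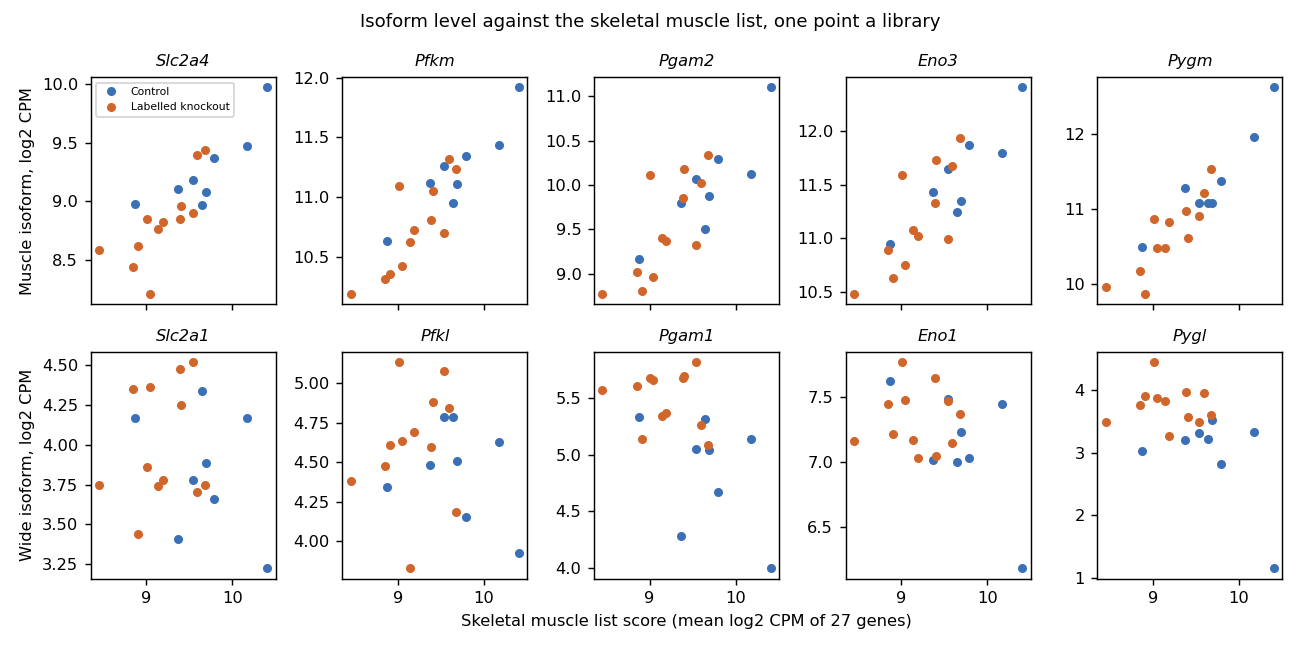
log2 CPM of muscle isoforms (top) and widely expressed isoforms (bottom) against the skeletal muscle list score (x axis, mean log2 CPM of 27 genes), 1 point a library. The muscle isoforms rise with the score in both groups (r from 0.74 to 0.93), and Control replicate 8 is the point farthest right in each panel.

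Because the muscle isoforms rose with the same score, the promoters of the isoform pairs were read from RefSeq (GRCm38.p6), each as 250 bases before to 50 bases after a start site. Entries were present for 9 of the 10 genes searched, and *Slc2a4* had none. Both strands were searched for the E-box CANNTG, bound by myogenic bHLH factors, for TATTTATA or TATTTTTA, a core of sites of the muscle factor MEF2, and for ACGTG or GCGTG, the core of hypoxia response elements. Of all 32851 promoters, 72.3% held the first, 4.29% the second and 43.8% the third. The *Pgam2* promoter held 5 E-boxes and the MEF2 core TATTTTTA, *Pygm* held 3 E-boxes and 2 hypoxia cores, and the most upstream of 4 *Pfkm* entries held 3 of each, where CACGTG counts as 1 E-box and, read on both strands, as 2 hypoxia cores. *Eno3* held 2 E-boxes and 1 hypoxia core. The other 3 *Pfkm* entries held 0, 1 and 1 E-boxes. Of the counterparts, *Pfkl* held 3 E-boxes, 1 of 3 *Eno1* entries held 2 and its others none, and *Pgam1*, *Pygl* and *Slc2a1* held none. These entries held 1 to 3 hypoxia cores each. The 3 muscle promoters with the most matches are shown for the 250 bases before the start, 5′ to 3′ on the gene's strand, with matches in capitals; they lie at chr11:5803797-5804046 (minus strand), chr15:98092339-98092588 (plus strand) and chr19:6384158-6384407 (plus strand). A match is a string of letters and not a measured site.
Pgam2: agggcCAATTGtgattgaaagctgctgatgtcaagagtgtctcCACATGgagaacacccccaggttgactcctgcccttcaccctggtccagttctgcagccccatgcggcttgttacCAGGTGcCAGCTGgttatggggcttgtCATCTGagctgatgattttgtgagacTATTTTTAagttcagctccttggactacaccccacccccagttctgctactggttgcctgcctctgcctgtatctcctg
Pfkm: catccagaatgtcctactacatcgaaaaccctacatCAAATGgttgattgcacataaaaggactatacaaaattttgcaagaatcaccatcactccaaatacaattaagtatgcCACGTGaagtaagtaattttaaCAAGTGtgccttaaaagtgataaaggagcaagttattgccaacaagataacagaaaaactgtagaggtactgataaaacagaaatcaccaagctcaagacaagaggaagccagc
Pygm: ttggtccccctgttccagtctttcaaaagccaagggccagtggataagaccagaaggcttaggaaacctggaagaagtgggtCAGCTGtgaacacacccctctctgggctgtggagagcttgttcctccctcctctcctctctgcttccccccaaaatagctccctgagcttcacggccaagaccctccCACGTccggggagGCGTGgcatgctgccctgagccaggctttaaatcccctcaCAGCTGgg

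Other genes of glucose metabolism were compared by lists. The counts of each list here and below stand against 12% higher and 11% lower among all genes tested. Of 21 further glycogen genes tested, 2 were higher and 6 lower (median log2FC -0.32). The largest changes were those of *Ppp1r3a*, the glycogen-targeting subunit of protein phosphatase 1 in muscle (-0.87, edgeR adjusted p = 0.00163), and *Ppp1r3b*, its counterpart known from liver (1.09, edgeR adjusted p = 0.0402). Of 9 genes of lactate and pyruvate exit, 1 was higher (*Slc16a7*, a monocarboxylate transporter, 1.18, edgeR adjusted p = 0.0087) and 2 lower, with *Mpc2*, a subunit of the mitochondrial pyruvate carrier, at -0.50 (edgeR adjusted p = 0.0279). The pentose phosphate pathway, which branches off at glucose 6-phosphate and makes NADPH, had 4 of 8 genes higher and none lower (median 0.21), led by *G6pdx*, its first enzyme (0.83, edgeR adjusted p = 0.018).

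Of 6 gluconeogenesis genes tested, *Pck2*, the mitochondrial phosphoenolpyruvate carboxykinase, was higher (0.92, edgeR adjusted p = 0.00233) and *Slc37a4*, the glucose 6-phosphate transporter, was lower (-0.77, edgeR adjusted p = 0.00835). Of 9 other transporters and isoforms, 3 were higher and 1 lower, with *Slc2a13*, a myo-inositol transporter, at 1.30 and *Slc2a12* at -0.55 (edgeR adjusted p = 0.00948 and 0.02). Of 20 regulators, 2 were higher and 8 lower (median -0.30), with *Myc*, a transcription factor that drives glycolytic genes, at 1.01 and *Prkag3*, the muscle-specific gamma subunit of AMP-activated kinase, at -1.15 (edgeR adjusted p = 0.00217 and 0.00752).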

How the data were processed

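Per the labels and the study's methods, condylar heads with part of the subchondral bone were sequenced as paired-end RNA-seq from 8 Control and 12 labelled knockout mice. The authors trimmed reads with the sequencing provider's own script, mapped them to mm10 and deposited raw counts per Ensembl gene from featureCounts; aligner, annotation release, strand and multimapping settings were not given in the sources used here, so reads of near-identical copies are uncertain. No column lacked a sample. Totals ran from 11153820 to 27045668 counts, and 3 counts are 0.113 CPM in the library of Control replicate 1. Of 54532 identifiers, 54495 matched GENCODE M21, which gave symbols, coordinates (1-based) and exon lengths. No library duplicated another (smallest chi-square per degree of freedom 32.9 over 190 pairs).

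Genes were tested with edgeR 4.0.16 in R 4.3.3 (filterByExpr, TMM, quasi-likelihood F-test, two-sided, Benjamini-Hochberg over all tested genes, threshold 0.05). SEs came from the F statistic. CPM values use TMM-scaled sizes, and log2 CPM a prior count of 2. Single values were compared by exact permutation, and correlations by 40320 exact pairings (n = 8) or 100000 resamples (n = 12). The procedure was tested on simulated counts. The p-values of group comparisons set the difference between the groups against the spread between these samples.

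The genes and lists were chosen with earlier results of these data known. The 33 genes are all named; of other pathway lists, the called gene with the largest change in each direction is named, and of marker lists *Ckm*, *Acta1*, *Mylpf*, *Snap25* and *Gfap*, with *Loxl2* as the targeted gene. Alternatives were DESeq2 1.42.0 (the study's Wald test) and its size factors, library totals, other filters, protein-coding genes alone, marker lists as covariates, the replicate block, another pseudocount, counts per kilobase and omission of each library; omission of Control replicates 1 and 8 was added after the data had been seen. *Acan* was named outside the rule, after its values were seen.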

Additional observations from a re-analysis of the deposited data

Results flagged for a closer look

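The 8 Control libraries were examined for a library far from the others, in the levels of the 33 genes and the 5 ratios. The genes were examined as CPM without a log scale, and 11 of these 38 measures had such a library. A chance rate of about 1 in 20 holds for values with a normal spread, which was not shown for CPM. The genes also did not vary independently, and Control replicate 8 was the highest Control library for 19 of the 33. The 11 therefore cannot be set against that rate. Control replicate 8 was the highest library in 9 of the 11 measures, and the next Control library is given after each value. It had 39.5 CPM of *Slc2a3* (14.2), 1006 of *Slc2a4* (711), 638 of *Hk2* (469), 88.0 of *Pfkfb4* (55.9), 21755 of *Aldoa* (11962), 2166 of *Tpi1* (1398), 2198 of *Pgam2* (1254), 3697 of *Pkm* (2482) and 458 of *Phka1* (242). Control replicate 1 was the highest in the other two, with 203 CPM of *Aldoc* (43.6) and 44.1 CPM of *Eno2* (18.04). None of the 5 ratios had such a library, but the log2 scale draws in high values, so ratios and CPM levels cannot be compared here. Control replicate 8 was the highest Control library in each ratio, with 9.22 for *Pygm* against 7.13 in Control replicate 4. The comparison used a critical value for 8 libraries and was not run in the group of 12. Libraries far from the others in that group were therefore not looked for. The cause was not tested.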

How the results depend on the processing

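Of the 33 genes, 13 passed with edgeR (3673 of all 15984 genes did). With library totals 10 passed (3037 of all 15984 genes), and with the Y chromosome covariate 12 (3795 of 15984). DESeq2 size factors gave 13 (3702 of 15984), and so did a 1 CPM minimum (3789 of 14713). The DESeq2 Wald test gave 14 (4219 of 18931). Only protein-coding genes gave 15 (3667 of 13958), and the neuron and glia covariate 17 (4201 of 15984). With no filter 8 passed (8.74% of all genes did, against 23.0%), with the skeletal muscle or osteoclast covariate 0 (8 and 3 at an unadjusted edgeR p under 0.05; 2.91% and 0 of all genes passed), without Control replicates 1 and 8 it was 6 (2451 of all 16388 genes), and in fits that each left out 1 library 7 to 15 (15.7% to 26.3% of all genes). With library totals alone, the median of all genes was 0.12 and 72.0% of all calls were higher (52.2% with TMM). The replicate block left 3 (11.5% of all genes), and 10 passed in the same 16 libraries without it (21.1%). Same-numbered libraries correlated by -0.36 to 0.17 and 0 of 8 Control libraries fitted their own number best. These values gave no sign of pairing by number, but they cannot exclude a weak pairing. With the replicate block the ratios were -0.83 (*Pfkm*), -0.77 (*Eno3*), -1.18 (*Pgam2*), -1.24 (*Pygm*) and -0.65 (*Slc2a4*), none passing (exact sign-flip adjusted p = 0.0586, and 0.156 for *Slc2a4*). Leaving out 1 library gave -0.90 to -0.54 (*Pfkm*), -0.77 to -0.36 (*Eno3*), -1.30 to -0.83 (*Pgam2*), -1.41 to -0.80 (*Pygm*) and -0.73 to -0.43 (*Slc2a4*); without Control replicates 1 and 8, *Slc2a4* stood at -0.50. A pseudocount of 5 and counts per kilobase changed no call of a ratio.

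Signs turned as follows, with no value passing. With library totals: *Pfkfb4* 0.017, *Eno2* 0.0092, *Gbe1* 0.057. With the block: *Eno2* 0.14. With the muscle covariate: *Gpi1* 0.095, *Pfkfb4* 0.067, *Aldoa* 0.15, *Pgam2* 0.11, *Eno3* 0.066, *Pkm* 0.039, *Pygb* -0.11. With the osteoclast covariate: *Slc2a4* 0.11, *Gpi1* 0.27, *Pfkm* 0.16, *Pfkl* -0.052, *Pfkfb3* 0.42, *Pfkfb4* 0.13, *Aldoa* 0.49, *Tpi1* 0.32, *Pgk1* 0.21, *Pgam2* 0.54, *Eno3* 0.45, *Pkm* 0.27, *Pygm* 0.14, *Pygb* -0.27, *Gys1* 0.026, *Gbe1* 0.0021, *Phka1* 0.11, *Phkg1* 0.051. With the neuron and glia covariate: *Aldoc* 0.66, *Eno2* 0.27. With the Y chromosome covariate: *Eno2* 0.070. Without Control replicates 1 and 8: *Slc2a3* 0.17, *Eno2* 0.18. Leaving out 1 library: *Eno2* -0.19 to 0.32, *Gbe1* -0.12 to 0.0077, *Slc2a3* -0.47 to 0.063, *Pfkfb4* -0.22 to 0.019. The cause was not tested.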
